A study of Mus musculus with 17 samples.

Results

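The receptor complex that developing T cells use to read out a rearranged antigen receptor, and the first proteins that pass its signal on, were followed in the thymus as 9 genes: the CD3 chains Cd3d, Cd3e and Cd3g, the zeta chain Cd247, the pre-T-cell receptor alpha chain Ptcra, the kinases Lck, Fyn and Zap70 and the adaptor Lat. They were chosen by name, for their roles, and each was represented by its probe set of highest mean log2 signal among the probe sets annotated to that gene alone. Of the 18193 genes measured in this way, 8 are members. Lck was not analysed here. All 8 lay above the filter on low signals and were among the 13755 genes tested.

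RNA was measured in the thymus of 17 C57Bl/6 mice, on 1 Affymetrix mouse genome array each, to compare tumors that form without Tcf1 with the tissue they came from. The groups were thymic lymphomas of Tcf1-/- mice (n = 8), thymi of Tcf1-/- mice without a tumor (n = 4) and thymi of Tcf1+/- control mice (n = 5). Tcf1-/- mice carried the ΔVII allele of Tcf1, the gene of T-cell factor 1, on both chromosomes, and Tcf1+/- mice carried ΔVII together with a wild-type allele, so every mouse in the series had at least 1 mutant allele. The deletion is not restricted to a cell type, a Tcf1-/- thymus was called a tumor by its cell number, and the lymphomas of this model are mixed in developmental stage. The stage of each tumor and the age of each mouse were not analysed here.

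The T-cell receptor has no signaling domain of its own. It is carried to the surface with the CD3 chains and a pair of zeta chains, whose cytoplasmic tails hold immunoreceptor tyrosine-based activation motifs (ITAMs). Before the alpha chain is rearranged, Ptcra stands in for it in the pre-T-cell receptor, which drives double negative thymocytes past beta selection. The Src family kinases Lck and Fyn phosphorylate the ITAMs, Zap70 binds them, and Zap70 then phosphorylates Lat, the scaffold from which calcium and Ras signals spread.

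The arrays of lymphomas 1 and 2 and of Tcf1+/- mice 1 and 2 stood apart, with an interquartile range of the log2 values of 2.93 to 3.06, against 3.49 to 3.75 on the other 13. Y-linked transcripts were present in 2 of 8 mice with a lymphoma, 4 of 4 Tcf1-/- mice and 4 of 5 Tcf1+/- mice. The mean log2 signal of 10 thymocyte markers, among them Thy1, Rag1 and Cd4, was 9.55 to 11.50 in lymphomas, 10.20 to 11.11 in Tcf1-/- thymi and 11.60 to 12.22 in Tcf1+/- thymi, so thymocyte transcripts were present on every array. The labels name homogenized thymus tissue and the study's methods thymocytes as the source of RNA, with no sorting described. A lower signal can reflect fewer cells of a type or less RNA per cell, which cannot be told apart.

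Against Tcf1+/- thymi Cd247 fell 3.78-fold in lymphomas and 3.15-fold in Tcf1-/- thymi without a tumor, Fyn rose 1.71-fold in both, and Cd3d and Cd3e fell 1.71-fold and 1.53-fold in tumor-free Tcf1-/- thymi, where Cd3g did not pass the test. Between Tcf1-/- and Tcf1+/- thymi 4 of 8 members passed the test (adjusted p under 0.05 from limma, Benjamini-Hochberg over all genes tested), against 14.8% of all genes. Of these, 1 was higher, against 10.1% of all genes, and 3 were lower, against 4.7%. Without the 4 arrays that stood apart 1 member was higher, against 10.3% of all genes, and 4 were lower, against 11.9%, and after quantile normalization 4 were lower, against 8.03% of all genes that were lower and 9.2% that were higher. Between lymphomas and Tcf1-/- thymi 2 of 8 members passed, against 14.7% of all genes, and both were higher, against 6.34% of genes that were higher and 8.35% that were lower. Between lymphomas and Tcf1+/- thymi 2 of 8 members passed, against 12.7% of all genes, with 1 higher, against 8.51%, and 1 lower, against 4.21%. The share of all genes was 5.44% higher and 6% lower there without the 4 arrays, and 6.56% higher and 6.12% lower after quantile normalization. The median log2 fold change of the 8 members was -0.47, 0.52 and -0.00 in these 3 comparisons, and that of all genes tested was -0.01, 0.10 and 0.06. The comparisons share groups, so the members' values in one are not independent of those in another.

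**Figure D1:**
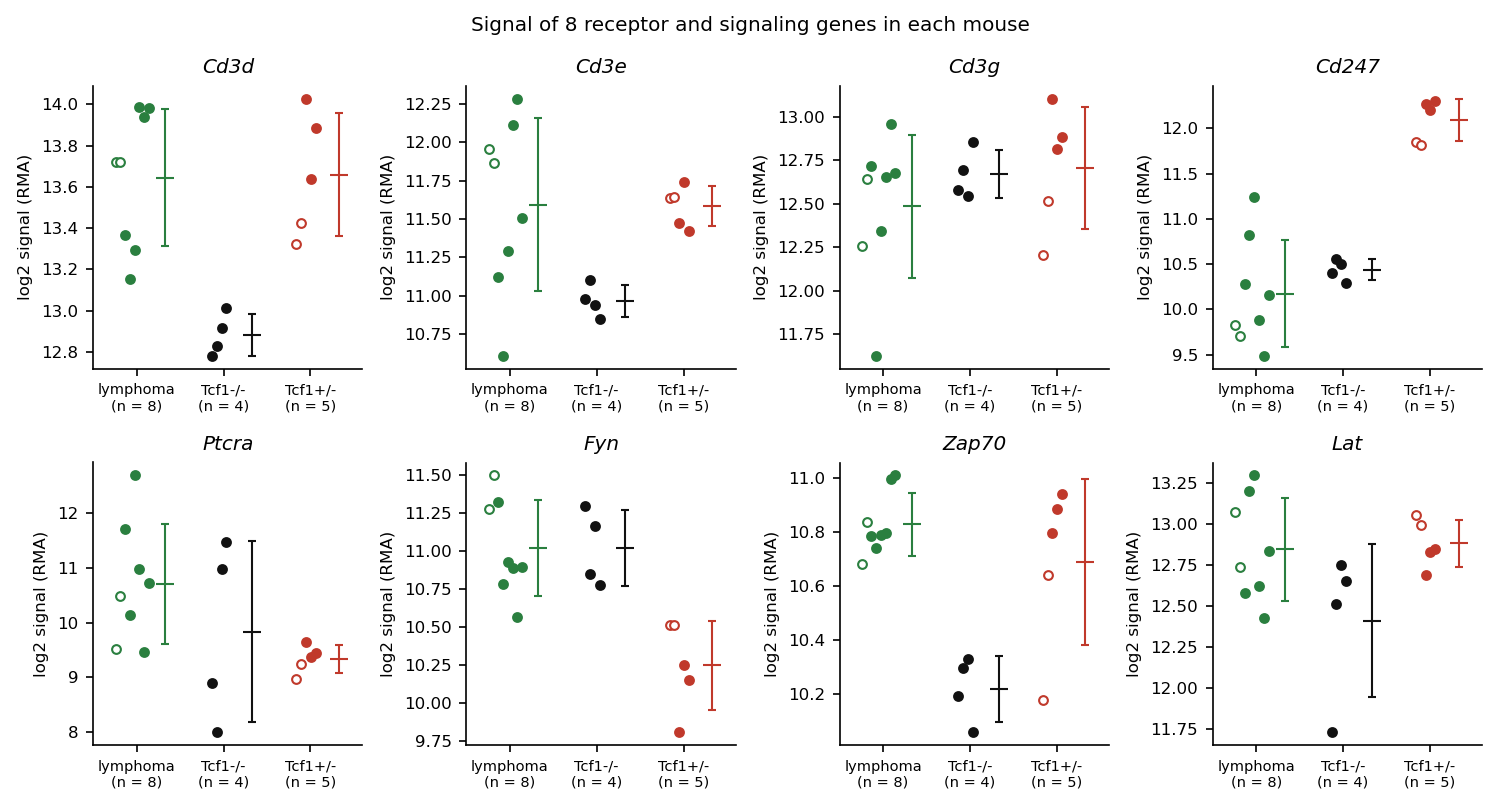
Log2 signal (RMA) of the 8 measured members on the y axis for each mouse, in lymphomas (green, n = 8), Tcf1-/- thymi without a tumor (black, n = 4) and Tcf1+/- thymi (red, n = 5), with the mean and SD beside the points and open circles for the 4 arrays that stood apart. Cd247 lies at 9.49 to 11.24 in lymphomas and 10.29 to 10.55 in Tcf1-/- thymi, below all Tcf1+/- thymi at 11.82 to 12.30.

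The 3 CD3 genes lie together on mouse chromosome 9. Cd3d and Cd3g are transcribed away from each other from start sites 1355 bases apart, and the start of Cd3e lies 29180 bases from that of Cd3g. Their 250 bases upstream of the start site are shown (RefSeq, mouse GRCm38.p6, 5′ to 3′ in the direction of each gene). They were chosen because Cd3d and Cd3e fell in tumor-free Tcf1-/- thymi, where their neighbor Cd3g did not pass the test. In lymphomas against Tcf1+/- thymi none of the 3 passed. Capitals mark CAGGTG, the letters bound by E proteins, and CTTTGA, the core bound by TCF and LEF factors, each also as its reverse complement CACCTG or TCAAAG. Cd3d is chr9:44981536-44981785 on the plus strand, Cd3e is chr9:45009612-45009861 on the minus strand and Cd3g is chr9:44980432-44980681 on the minus strand.
Cd3d: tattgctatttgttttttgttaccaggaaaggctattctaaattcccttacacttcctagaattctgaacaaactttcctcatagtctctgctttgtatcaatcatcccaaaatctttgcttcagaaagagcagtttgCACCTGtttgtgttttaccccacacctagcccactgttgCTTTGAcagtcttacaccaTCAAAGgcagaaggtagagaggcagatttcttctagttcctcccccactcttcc
Cd3e: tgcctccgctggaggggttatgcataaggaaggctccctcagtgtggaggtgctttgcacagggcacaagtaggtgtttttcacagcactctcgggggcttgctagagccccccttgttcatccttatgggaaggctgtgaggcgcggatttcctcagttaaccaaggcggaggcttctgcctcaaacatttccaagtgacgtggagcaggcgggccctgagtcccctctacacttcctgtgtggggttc
Cd3g: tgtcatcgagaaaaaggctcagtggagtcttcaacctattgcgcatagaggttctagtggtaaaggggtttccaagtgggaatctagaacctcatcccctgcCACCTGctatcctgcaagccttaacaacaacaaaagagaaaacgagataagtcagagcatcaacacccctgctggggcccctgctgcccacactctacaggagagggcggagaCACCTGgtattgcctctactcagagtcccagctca

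CTTTGA or its reverse complement stood in the upstream window of Cd3d, beginning 73 and 54 bases before the start, and in neither of the other windows. CAGGTG or its reverse complement stood in Cd3d 112 bases and in Cd3g 148 and 35 bases before the start. Among all 32851 mouse promoter windows of the same 250 bases, 13.8% held CTTTGA and 17.2% held CAGGTG on either strand, and no match overlapped another in the windows shown. A match describes the letters only, and other letters that these proteins may bind were not searched.

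Cd3d, whose product pairs with CD3 epsilon, had a lowest log2 signal of 13.15 in lymphomas, a median of 13.72 and a highest of 13.99. The 4 Tcf1-/- thymi had 12.78, 12.83, 12.91 and 13.01, and the 5 Tcf1+/- thymi 13.32, 13.42, 14.03, 13.64 and 13.89. All Tcf1-/- thymi thus lay below every lymphoma and every control. In Tcf1-/- thymi against Tcf1+/- thymi Cd3d fell by 0.78 (log2 scale, with a standard error, SE, of 0.17 and a limma adjusted p = 0.0133), a 1.71-fold difference. Against Tcf1-/- thymi it rose in lymphomas by 0.76 (SE 0.18, adjusted p = 0.0154), and lymphomas and controls overlapped, with a log2 fold change of -0.01 (SE 0.19, adjusted p = 0.98). The rise in lymphomas did not pass without Tcf1-/- mouse 1 (0.73, adjusted p = 0.0585) or mouse 2 (0.74, adjusted p = 0.0509), nor with Y-linked signal as a covariate (0.69, adjusted p = 0.244).

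Cd3e, the chain that pairs with both other CD3 chains, behaved likewise in tumor-free thymi. It had 10.61 in the lowest, 11.69 in the median and 12.28 in the highest lymphoma, 10.98, 11.10, 10.94 and 10.85 in Tcf1-/- thymi and 11.64, 11.65, 11.47, 11.74 and 11.42 in Tcf1+/- thymi. The Tcf1-/- thymi again lay below all controls, and Cd3e fell by 0.62 (SE 0.13, adjusted p = 0.0113). Lymphomas spread on both sides of the other groups, with lymphoma 4 below every Tcf1-/- thymus and 4 of 8 above every control. Their log2 fold change was 0.63 against Tcf1-/- thymi (SE 0.28, adjusted p = 0.148) and 0.01 against Tcf1+/- thymi (SE 0.25, adjusted p = 0.989). Without lymphoma 4 the difference to Tcf1-/- thymi passed (0.77, adjusted p = 0.037), and the fall in Tcf1-/- thymi did not when all 17 arrays were fitted together (adjusted p = 0.179).

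Cd3g, the third CD3 chain, had 11.62 in the lowest, 12.65 in the median and 12.96 in the highest lymphoma. Tcf1-/- thymi had 12.58, 12.70, 12.55 and 12.85 and Tcf1+/- thymi 12.20, 12.52, 13.11, 12.81 and 12.89, and all 3 groups overlapped. Its log2 fold change was -0.04 in Tcf1-/- thymi against Tcf1+/- thymi (SE 0.19, adjusted p = 0.936), -0.18 in lymphomas against Tcf1-/- thymi (SE 0.22, adjusted p = 0.612) and -0.22 in lymphomas against Tcf1+/- thymi (SE 0.22, adjusted p = 0.62). Lymphoma 4 was the lowest lymphoma for each of the 3 CD3 chains.

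**Figure D2:**
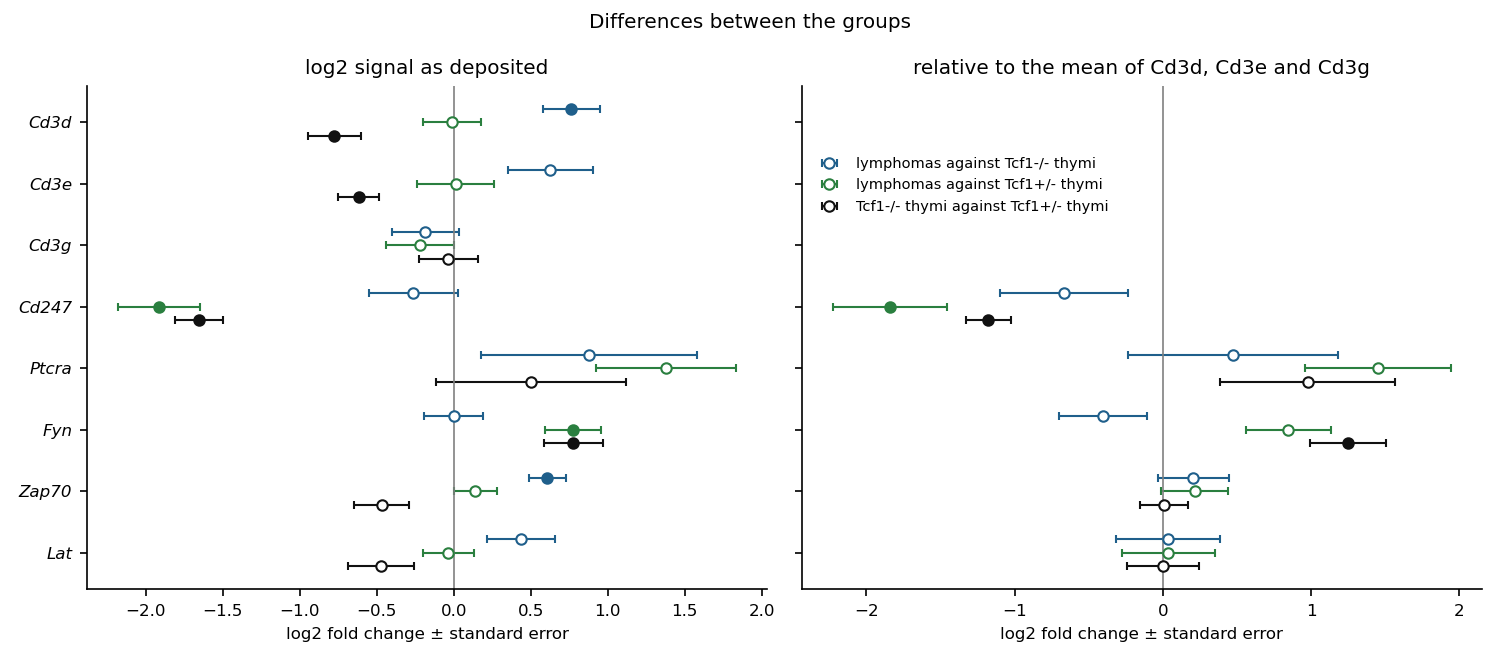
Log2 fold change with its standard error for each member in the 3 comparisons, from the signal as deposited (left) and after subtraction of the mean of Cd3d, Cd3e and Cd3g on the same array (right, 5 members), in black for Tcf1-/- against Tcf1+/- thymi, blue for lymphomas against Tcf1-/- thymi and green for lymphomas against Tcf1+/- thymi, with filled circles for an adjusted p under 0.05. Against Tcf1+/- thymi Cd247 lies at -1.92 in lymphomas and -1.65 in Tcf1-/- thymi, and Fyn at 0.77 in both.

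Cd247, the zeta chain that carries most of the ITAMs of the complex, had the largest fold change of the members in both comparisons with Tcf1+/- thymi. Its window upstream of the start at chr1:165788431-165788680 (GRCm38.p6, plus strand) is shown beside that of Fyn at chr10:39369549-39369798 (plus strand), since these 2 members changed in opposite directions in both comparisons with controls, with capitals as above.
Cd247: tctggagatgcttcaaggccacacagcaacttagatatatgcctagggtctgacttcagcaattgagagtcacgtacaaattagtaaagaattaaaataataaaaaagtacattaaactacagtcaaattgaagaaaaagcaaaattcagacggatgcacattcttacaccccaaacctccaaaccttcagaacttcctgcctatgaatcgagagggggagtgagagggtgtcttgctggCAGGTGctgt
Fyn: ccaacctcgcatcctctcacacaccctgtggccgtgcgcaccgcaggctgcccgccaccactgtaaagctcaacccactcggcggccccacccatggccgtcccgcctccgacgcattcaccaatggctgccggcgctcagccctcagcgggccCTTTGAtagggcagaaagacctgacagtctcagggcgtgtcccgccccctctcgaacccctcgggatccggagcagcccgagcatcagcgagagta

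Cd247 held CAGGTG 10 bases before its start and no CTTTGA, and Fyn held CTTTGA 96 bases before its start and no CAGGTG. Over the 8 measured members and Lck, 12 windows were listed, of which 6 held CAGGTG and 3 CTTTGA. Among all mouse promoter windows 17.2% held CAGGTG and 13.8% CTTTGA. Of the 3 windows with CTTTGA, that of Cd3d, which fell in tumor-free Tcf1-/- thymi, and 1 of Zap70 also held CAGGTG. The window of Cd3e, which fell there too, held neither.

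In lymphomas the log2 signal of Cd247 was 9.49 at the lowest, 10.02 at the median and 11.24 at the highest. Tcf1-/- thymi had 10.40, 10.55, 10.50 and 10.29, and Tcf1+/- thymi 11.85, 11.82, 12.27, 12.20 and 12.30. No Tcf1-/- mouse, with or without a tumor, reached the lowest control. Cd247 fell in lymphomas against Tcf1+/- thymi, with a log2 fold change of -1.92 (SE 0.27, adjusted p = 0.00049), and in Tcf1-/- thymi against Tcf1+/- thymi, with -1.65 (SE 0.16, adjusted p = 0.000162). The exact two-sided permutation p was 0.000777 in the first comparison and 0.00794 in the second, the smallest these group sizes allow. Lymphomas against Tcf1-/- thymi differed by -0.26 (SE 0.29, adjusted p = 0.585), and lymphomas 4 and 5, at 10.82 and 11.24, lay above all Tcf1-/- thymi while the other 6 lay below them.

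The fall held within each set of arrays. On the 4 arrays that stood apart, the 2 lymphomas averaged 9.77 and the 2 Tcf1+/- thymi 11.84, a difference of -2.07, and on the others 6 lymphomas averaged 10.31 and 3 Tcf1+/- thymi 12.26, a difference of -1.95. Other probe sets of Cd247 did not all follow, and with the mean of its probe sets Cd247 differed by -0.79 in Tcf1-/- thymi and did not pass (adjusted p = 0.199). With that mean it still passed as lower in lymphomas against controls. In order of mean signal, the second probe set differed by -0.42 in Tcf1-/- thymi (adjusted p = 0.886) and by -1.93 in lymphomas (adjusted p = 0.27) against controls. Its signal was 5.27 and 5.82 in the 2 lymphomas and 6.14 and 7.44 in the 2 Tcf1+/- thymi whose arrays stood apart, against 7.18 to 9.58 in the other lymphomas and 11.24 to 11.76 in the other Tcf1+/- thymi. Within the other 13 arrays its 4 Tcf1-/- thymi, at 8.98 to 9.45, again lay below the 3 controls. The third fell in Tcf1-/- thymi (log2 fold change -1.05, adjusted p = 0.0366) and differed by -0.62 in lymphomas against controls (adjusted p = 0.17). The last stayed at 3.41 to 4.06 in every mouse and was below the filter.

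**Figure D3:**
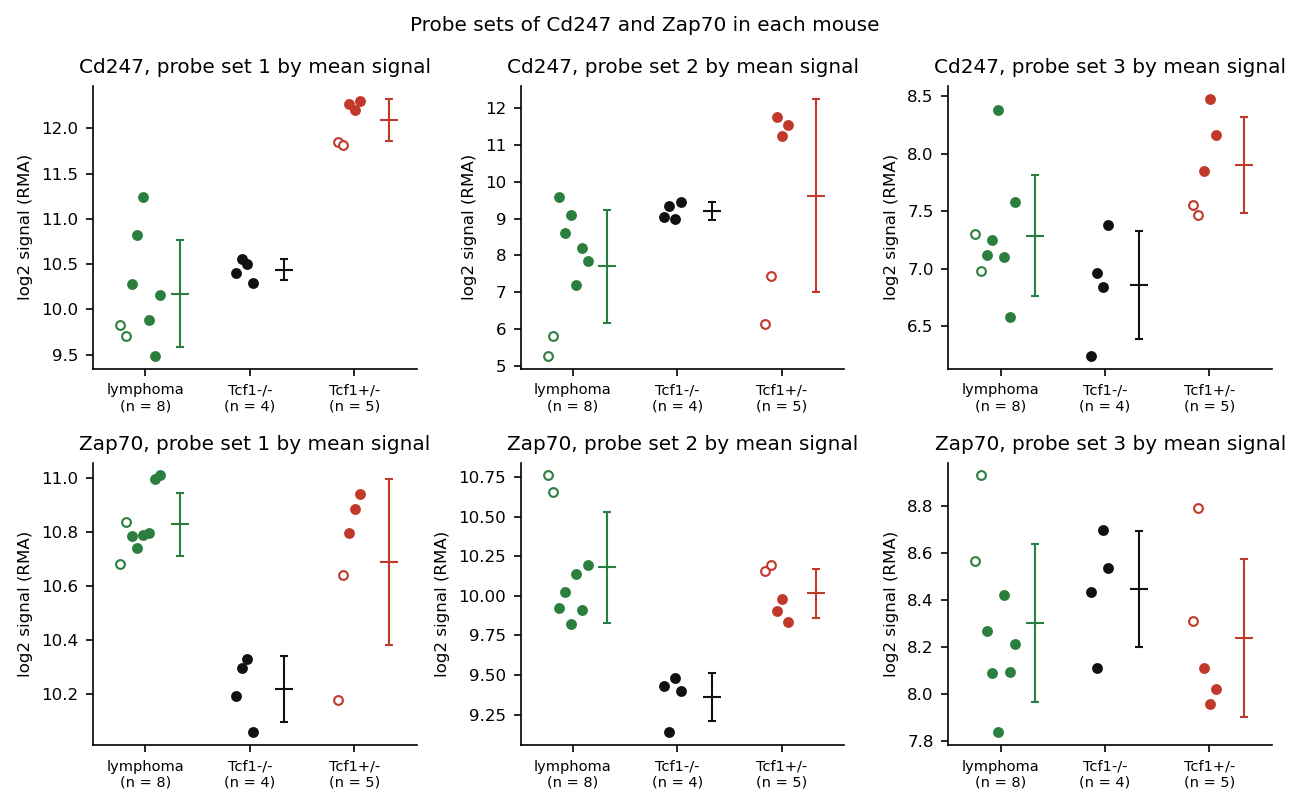
Log2 signal (RMA) of 3 probe sets of Cd247 (top) and 3 of Zap70 (bottom), ordered by mean signal from the left, on the y axis for each mouse, in lymphomas (green), Tcf1-/- thymi (black) and Tcf1+/- thymi (red), with the mean and SD and open circles for the 4 arrays that stood apart. On the second probe set of Cd247 the open circles lie at 5.27 to 7.44, below every other array but that of lymphoma 6 at 7.18.

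Ptcra, which is made by thymocytes before and during beta selection, varied more from mouse to mouse in lymphomas and in Tcf1-/- thymi than the other members. It had 9.45 in the lowest lymphoma, a median of 10.60 and 12.69 in the highest, lymphoma 5. Tcf1-/- thymi had 8.90, 7.99, 10.97 and 11.47 and Tcf1+/- thymi 8.96, 9.24, 9.65, 9.37 and 9.44. The 4 Tcf1-/- thymi thus split, with mice 1 and 2 below every control and mice 3 and 4 above every control, while 6 of 8 lymphomas lay above every control. The SD was 1.10 in lymphomas and 1.66 in Tcf1-/- thymi, against 0.26 in Tcf1+/- thymi. The log2 fold change was 0.50 in Tcf1-/- thymi (SE 0.62, adjusted p = 0.693) and 1.38 in lymphomas (SE 0.46, adjusted p = 0.0631) against controls, and 0.88 in lymphomas against Tcf1-/- thymi (SE 0.70, adjusted p = 0.439), with an exact permutation p of 0.0171 for lymphomas against controls. The difference of Ptcra between lymphomas and Tcf1+/- thymi did not pass in 26 of 31 alternative settings. It was 1.46 (adjusted p = 0.139) when lymphomas 1 and 2 and Tcf1+/- mice 1 and 2 were left out. The difference passed in 5 settings. These were the mouse number as a replicate block over 5 pairs (1.57, adjusted p = 0.0356) and the array set as a block (1.27, adjusted p = 0.0451). The others were array weights (1.30, adjusted p = 0.00111) and the fits without lymphoma 1 (1.55, adjusted p = 0.0362) or lymphoma 7 (1.56, adjusted p = 0.0366). Within the sets of arrays the difference was 0.89 on the 4 that stood apart and 1.46 on the others.

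Most marker lists had the same split in Tcf1-/- thymi. Thymocyte means were lower in mice 1 and 2 than in mice 3 and 4. B cell, macrophage, dendritic cell, gamma-delta and innate-like T cell, and fibroblast means were higher in mice 1 and 2. NK cell and thymic epithelial means did not split in this way. Mice 1 and 2, with low Ptcra, had a mean log2 signal of thymocyte markers of 10.20 and 10.55 and of 7 B cell markers of 9.90 and 8.87, and mice 3 and 4 had 11.11 and 10.89 for thymocyte and 8.58 and 8.21 for B cell markers. The NK cell mean was 8.93, 8.14, 8.24 and 7.24 in Tcf1-/- mice 1 to 4, and the thymic epithelial mean 7.13, 7.01, 6.82 and 7.99. Among lymphomas, number 5 had the highest Ptcra, Cd247, Lat and thymocyte marker mean (11.50). Whether the makeup of the tissue sets the level of Ptcra was not tested.

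Fyn, a Src family kinase expressed in thymocytes and more strongly in mature T and NK cells, rose in both groups of Tcf1-/- mice. Lymphomas had 10.57 at the lowest, 10.91 at the median and 11.50 at the highest, Tcf1-/- thymi had 11.30, 10.85, 11.16 and 10.78 and Tcf1+/- thymi had 10.51, 10.51, 9.81, 10.25 and 10.15. Every Tcf1-/- mouse lay above every control. Fyn rose by 0.77 in Tcf1-/- thymi (SE 0.19, adjusted p = 0.0207) and by 0.77 in lymphomas (SE 0.18, adjusted p = 0.013) against controls, a 1.71-fold difference in each, and differed by -0.00 between lymphomas and Tcf1-/- thymi (SE 0.19, adjusted p = 0.996). Another probe set of Fyn rose by 0.66 in Tcf1-/- thymi (adjusted p = 0.026) and by 1.06 in lymphomas (adjusted p = 0.00479). The rise in Tcf1-/- thymi did not pass without Tcf1-/- mouse 1 (0.68, adjusted p = 0.0516), Tcf1-/- mouse 3 (0.73, adjusted p = 0.0656) or Tcf1+/- mouse 5 (0.75, adjusted p = 0.0521). Neither passed after quantile normalization across arrays (adjusted p = 0.0734 in Tcf1-/- thymi and 0.0681 in lymphomas) or relative to Abl1 (adjusted p = 0.155 and 0.137). That in lymphomas did not pass with Y-linked signal as a covariate (0.62, adjusted p = 0.0994), and was 0.88 on the 4 arrays that stood apart and 0.83 on the others.

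Zap70, the kinase that docks on phosphorylated ITAMs, was lowest in tumor-free Tcf1-/- thymi. Lymphomas had 10.68 at the lowest, 10.79 at the median and 11.01 at the highest, Tcf1-/- thymi had 10.19, 10.30, 10.33 and 10.06 and Tcf1+/- thymi had 10.18, 10.64, 10.79, 10.88 and 10.94. All lymphomas lay above all Tcf1-/- thymi, while among controls mouse 1 fell within the range of the Tcf1-/- thymi. Zap70 rose by 0.61 in lymphomas against Tcf1-/- thymi (SE 0.12, adjusted p = 0.00515) and had a log2 fold change of 0.14 against Tcf1+/- thymi (SE 0.14, adjusted p = 0.626). In Tcf1-/- thymi against Tcf1+/- thymi it was -0.47 (SE 0.18, adjusted p = 0.119), which passed without Tcf1+/- mouse 1 (-0.60, adjusted p = 0.0228) and without all 4 arrays that stood apart (-0.65, adjusted p = 0.00818). The rise in lymphomas did not pass with Y-linked signal as a covariate (0.55, adjusted p = 0.155).

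The other probe sets of Zap70 disagreed with each other. The second by mean signal fell in Tcf1-/- thymi against controls without overlap (log2 fold change -0.65, adjusted p = 0.0177) and rose by 0.82 in lymphomas against Tcf1-/- thymi (adjusted p = 0.017). The third, at a mean of 8.30 in lymphomas, 8.45 in Tcf1-/- thymi and 8.24 in Tcf1+/- thymi, passed in no comparison (adjusted p = 0.648 to 0.897).

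Lat, the membrane scaffold that Zap70 phosphorylates, passed in no comparison. Lymphomas had 12.43 at the lowest, 12.79 at the median and 13.30 at the highest, Tcf1-/- thymi had 11.73, 12.52, 12.75 and 12.65 and Tcf1+/- thymi had 13.05, 12.99, 12.69, 12.83 and 12.85. Of the 4 Tcf1-/- thymi 3 lay below every control, mouse 1 by the most. The log2 fold change was -0.47 in Tcf1-/- thymi against Tcf1+/- thymi (SE 0.21, adjusted p = 0.193), 0.44 in lymphomas against Tcf1-/- thymi (SE 0.22, adjusted p = 0.214) and -0.04 in lymphomas against Tcf1+/- thymi (SE 0.17, adjusted p = 0.936).

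To ask whether a member moved by more than the CD3 chains on the same array, the mean of Cd3d, Cd3e and Cd3g was subtracted from every gene. Among the other 5 measured members 2 passed in Tcf1-/- thymi against Tcf1+/- thymi, where 37.2% of all genes passed and the median of all genes was 0.46. Relative to the CD3 chains Cd247 fell by 1.18 (SE 0.15, adjusted p = 0.00025) and Fyn rose by 1.25 (SE 0.26, adjusted p = 0.00371), whereas Zap70 and Lat were at 0.01 and 0.00 (SE 0.16 and 0.24, adjusted p = 0.969 and 0.991). Among these 5, 1 passed in lymphomas against Tcf1+/- thymi, against 7.94% of all genes, and 3 passed with the replicate block, against 11.7% of all genes. Without the block this was Cd247, which fell by 1.84 (SE 0.39, adjusted p = 0.00618) and did not pass once the 4 arrays that stood apart were left out (log2 fold change -1.71, adjusted p = 0.0517). In lymphomas against Tcf1-/- thymi, where 11.4% of all genes passed, the 5 members had an adjusted p of 0.383 (Cd247) to 0.96 (Lat).

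Genes that carry the signal on from the receptor mostly fell in Tcf1-/- mice where they passed the test. Of 31 listed genes 29 were measured and tested. Of these, 11 fell and 2 rose in Tcf1-/- thymi against Tcf1+/- thymi, with a median of -0.63 (16 and 1 without the 4 arrays that stood apart), and in lymphomas against Tcf1+/- thymi 10 fell and 1 rose, with a median of -0.60. Of all genes 4.7% fell and 10.1% rose in the first comparison, and 11.9% and 10.3% without the 4 arrays. In the second 4.21% fell and 8.51% rose. Between lymphomas and Tcf1-/- thymi 1 of 29 passed, against 14.7% of all genes, with a median of -0.27. It was Plcg1, the phospholipase recruited by Lat, which rose by 0.73 (SE 0.18, adjusted p = 0.0187).

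Themis, which tunes receptor signaling during thymic selection, averaged 10.04 in Tcf1-/- thymi and 12.06 in Tcf1+/- thymi and fell by 2.02 (SE 0.32, adjusted p = 0.00226). In lymphomas against controls Themis fell as well, with a log2 fold change of -1.54 (SE 0.36, adjusted p = 0.013). The costimulatory receptor Cd28 fell in both, with log2 fold changes of -1.80 in lymphomas (SE 0.28) and -1.94 in Tcf1-/- thymi (SE 0.22) against controls. Sh2d1a, the adaptor SAP, fell by 1.63 in Tcf1-/- thymi. In lymphomas the Tec kinase Txk (log2 fold change -2.12) and Trat1 (-1.96), the receptor-associated adaptor TRIM, fell. Unc119, a lipid-binding chaperone of Src family kinases, rose by 1.69 in Tcf1-/- thymi (SE 0.30, adjusted p = 0.00427) and by 1.86 in lymphomas (SE 0.38, adjusted p = 0.00576), and the other gene that rose in Tcf1-/- thymi was the transcription factor Nfatc2, by 1.03 (adjusted p = 0.0193).

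Negative regulators of the receptor also fell in part. All 19 listed were tested, and 7 fell and 3 rose in Tcf1-/- thymi, with a median of -0.57, and 9 fell and 1 rose in lymphomas against controls, with a median of -0.60. Of all genes 4.7% fell and 10.1% rose in the first comparison and 4.21% and 8.51% in the second. Without the 4 arrays that stood apart 9 fell and 4 rose in Tcf1-/- thymi, against 11.9% and 10.3% of all genes. In lymphomas 7 then fell and 2 rose, against 6% and 5.44%. Sit1, a transmembrane adaptor that recruits phosphatases, averaged 8.94 in lymphomas, 8.05 in Tcf1-/- thymi and 10.44 in Tcf1+/- thymi. Against controls its log2 fold change was -1.50 in lymphomas (adjusted p = 3.54e-05) and -2.40 in Tcf1-/- thymi (adjusted p = 0.000158), and it rose by 0.89 in lymphomas against Tcf1-/- thymi (adjusted p = 0.0104). Cd5, whose level follows the strength of receptor signals in thymocytes, fell in lymphomas (-1.77) and in Tcf1-/- thymi (-2.07) against controls. Its relative Cd6 also fell in lymphomas (-1.45, adjusted p = 0.0354) and in Tcf1-/- thymi (-1.93). In lymphomas the diacylglycerol kinase Dgka (-1.76) and the adaptor Sla (-1.51) fell, and Sla also fell in Tcf1-/- thymi (-1.27, adjusted p = 0.00496). The ubiquitin ligase Cblb rose by 1.22 and Ubash3b by 0.904 in Tcf1-/- thymi against controls. Lax1, an adaptor of T and B cells, rose by 1.70 there and fell by 1.32 in lymphomas against Tcf1-/- thymi, where the phosphatases Ubash3b (-1.67) and Ptpn6 (-1.20) also fell. Between lymphomas and Tcf1-/- thymi 2 rose and 3 fell in all, against 6.34% and 8.35% of all genes, with a median of -0.24.

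**Figure D4:**
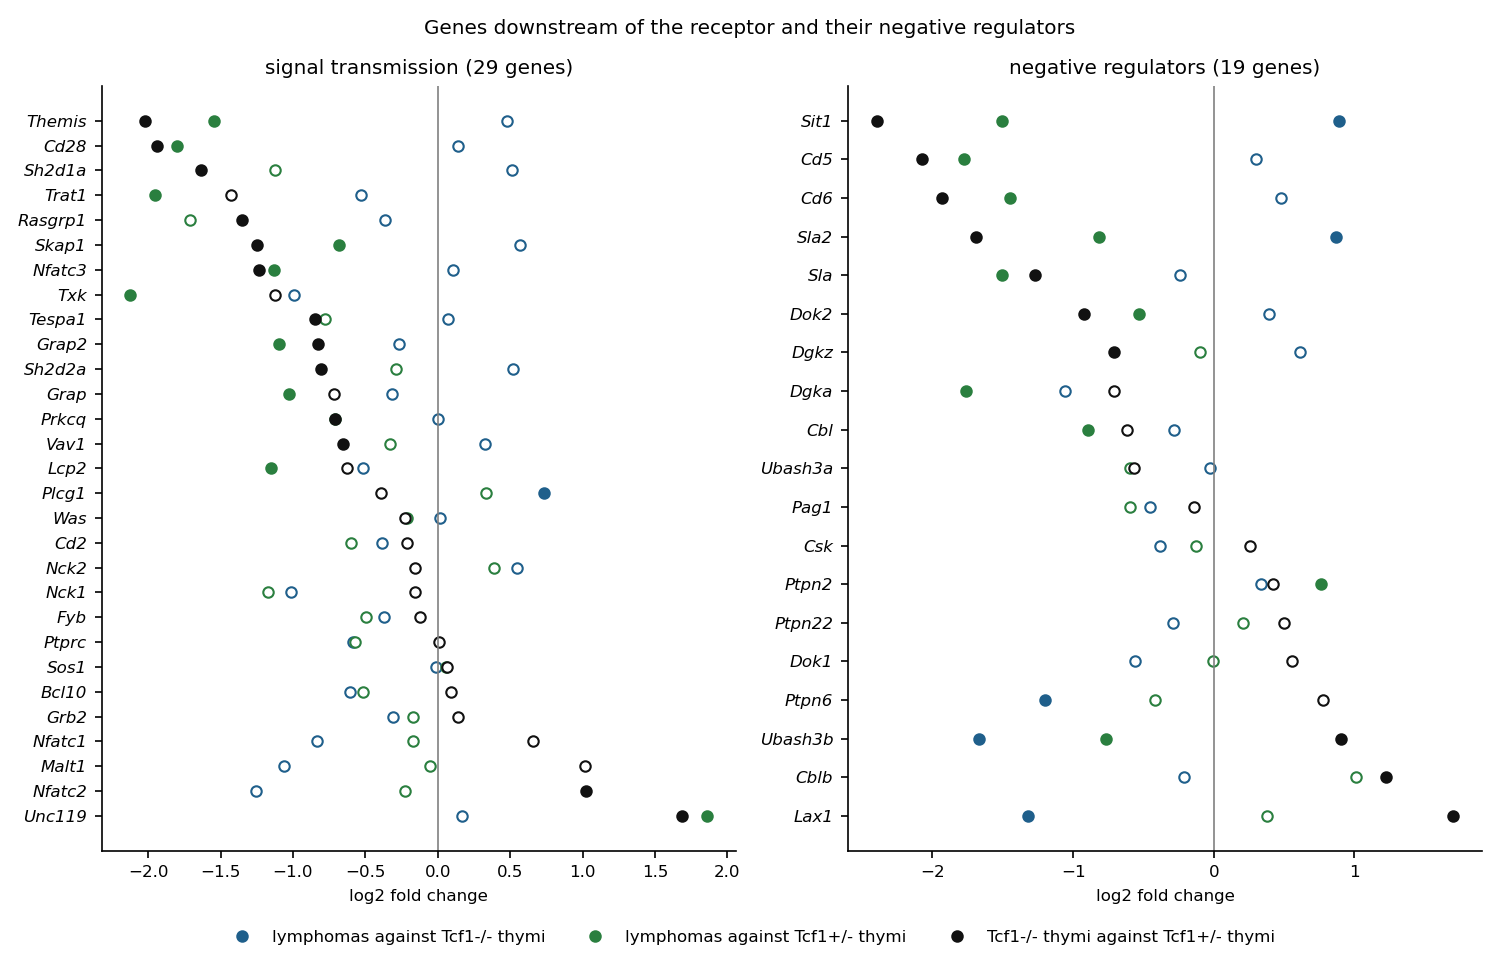
Log2 fold change on the x axis of 29 genes downstream of the receptor (left) and 19 negative regulators (right), ordered by their value in Tcf1-/- thymi against Tcf1+/- thymi, with black for that comparison, blue for lymphomas against Tcf1-/- thymi, green for lymphomas against Tcf1+/- thymi and filled circles for an adjusted p under 0.05. Most filled black and green circles lie left of 0, and Unc119 lies at 1.86 in lymphomas and 1.69 in Tcf1-/- thymi against Tcf1+/- thymi.

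ITAM signaling genes of other lineages moved in the opposite direction in tumor-free Tcf1-/- thymi. Of 14 listed genes 12 were tested, among them Hcst, an adaptor without an ITAM. Against Tcf1+/- thymi 11 of 12 rose in Tcf1-/- thymi, with a median of 2.68, and in lymphomas against Tcf1-/- thymi all 12 fell, with a median of -2.91. Cd79a and Cd79b, the ITAM chains of the B-cell receptor, rose by 4.32 and 2.92 in Tcf1-/- thymi against controls and fell in lymphomas against Tcf1-/- thymi, with log2 fold changes of -4.12 and -3.45. The B-cell kinase Blk and adaptor Blnk rose by 3.40 and 3.23 in Tcf1-/- thymi. Fcer1g and Tyrobp, ITAM adaptors of NK and myeloid cells, also fell in lymphomas against Tcf1-/- thymi, with log2 fold changes of -3.20 and -3.63. Against Tcf1+/- thymi the lymphomas had 1 gene higher, Blk by 1.34 (adjusted p = 0.0494), and 1 lower, Hcst with -0.998 (adjusted p = 0.0248), and neither passed without the 4 arrays that stood apart.

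Most markers of NK, B, macrophage and dendritic cells also rose in tumor-free Tcf1-/- thymi, where Cd3d and Cd3e fell. Against Tcf1+/- thymi 5 of 6 NK cell, 6 of 7 B cell, 11 of 11 macrophage and 5 of 7 dendritic cell markers tested rose in Tcf1-/- thymi, the last as 3 of 7 without the 4 arrays that stood apart. The mean of 7 NK cell markers was 4.54 to 5.41 in lymphomas, 7.24 to 8.93 in Tcf1-/- thymi and 5.83 to 6.35 in Tcf1+/- thymi. That of 7 B cell markers was 5.31 to 6.44 in lymphomas, 8.21 to 9.90 in Tcf1-/- thymi and 5.82 to 6.33 in Tcf1+/- thymi. That of 11 macrophage markers was 6.07 to 8.82 in lymphomas, 9.14 to 11.07 in Tcf1-/- thymi and 7.04 to 8.13 in Tcf1+/- thymi. The NK cell receptor Klrd1 averaged 5.28 in lymphomas, 11.03 in Tcf1-/- thymi and 7.89 in Tcf1+/- thymi, and the NK cell gene Ncr1 was below the filter, at 4.86 in Tcf1-/- thymi and 4.17 in Tcf1+/- thymi. NK cells also make Cd247, Fyn, Zap70 and Lat. The part of these cells in the members' differences was not tested. In lymphomas against Tcf1+/- thymi, where Cd247 fell and Fyn rose as well, 5 of 6 NK cell markers fell, and the median log2 fold change was -0.01 for B cell and -0.17 for macrophage markers. Of 7 dendritic cell markers 4 fell there, with a median of -0.46, and 3 without the 4 arrays that stood apart. There the median was 1.69 for 4 gamma-delta and innate-like T cell markers, whose mean was 6.67 to 8.88 in lymphomas and 6.54 to 6.85 in Tcf1+/- thymi, and 1 passed. It was 1.28 for 6 fibroblast markers, whose mean over 7 genes was 5.34 to 7.59 in lymphomas and 5.11 to 5.38 in Tcf1+/- thymi, and 1, Fbln1, passed. It was -0.91 for 10 thymic epithelial markers, with a mean of 5.07 to 6.54 in lymphomas and 6.04 to 6.82 in Tcf1+/- thymi, and 2 fell. In Tcf1-/- thymi against Tcf1+/- thymi 3 of 6 fibroblast markers rose, as did 1 of 10 for thymic epithelium.

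**Figure D5:**
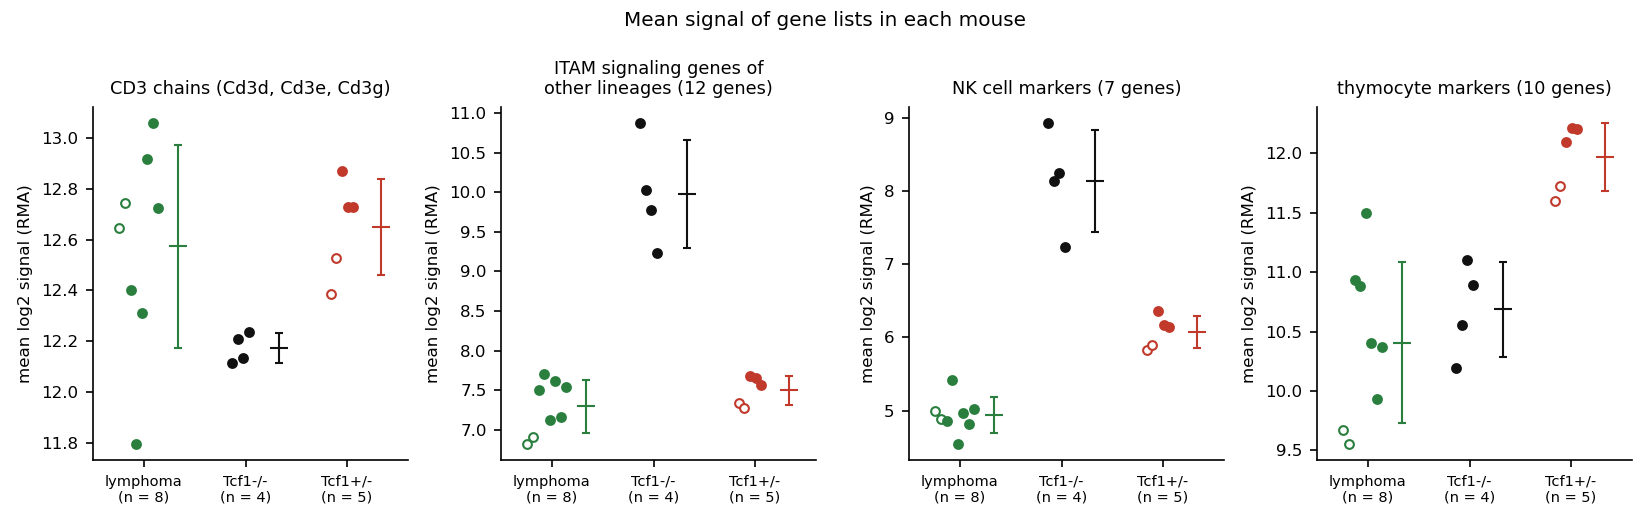
Mean log2 signal (RMA) on the y axis for each mouse of the 3 CD3 chains, of 12 ITAM signaling genes of other lineages, of 7 NK cell markers and of 10 thymocyte markers, in lymphomas (green), Tcf1-/- thymi (black) and Tcf1+/- thymi (red), with the mean and SD and open circles for the 4 arrays that stood apart. The 4 Tcf1-/- thymi lie at 9.23 to 10.87 for the 12 ITAM signaling genes of other lineages, Hcst included, above lymphomas at 6.83 to 7.71 and Tcf1+/- thymi at 7.28 to 7.68.

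Of 10 thymocyte markers 8 fell and 1 rose in Tcf1-/- thymi and in lymphomas against controls. The gene that rose in both was Il2ra, the receptor chain CD25 of double negative thymocytes, by 2.75 in Tcf1-/- thymi (adjusted p = 0.00146) and by 2.58 in lymphomas (adjusted p = 0.0284). When the 4 arrays that stood apart were left out, 6 thymocyte markers fell in lymphomas and Il2ra did not pass there. Of 4 gamma-delta and innate-like T cell markers 3 rose in Tcf1-/- thymi against controls, led by Cd163l1 at 4.97, and 1 rose in lymphomas, Sox13 by 1.91. Gamma-delta T cells carry the same CD3 chains. Antigen receptor chain genes were not tested here. The only one with a probe set of its own, Tcra, was below the filter, at 3.31 to 3.77 in every mouse, so its level was not assessed.

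Across the 17 arrays the genes most like the mean of the 3 CD3 chains were Exosc4, Pex10 and Qser1 (Pearson's r 0.875, 0.85 and 0.847). Those most like Ptcra were Pak4, C1qtnf12 and Uqcc2 (0.845, 0.842 and 0.841), and over the 8 lymphomas alone these 3 had 0.675, 0.917 and 0.767. These are descriptions over points that share groups and array sets, picked as the highest of all genes tested.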

How the data were processed

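Total RNA was hybridized to 1 Affymetrix mouse array per mouse. Its source is homogenized thymus tissue per the labels and homogenized thymocytes in the study's methods, and no sorting is described. The authors deposited log2 signals normalized by RMA (robust multi-array average) over the arrays, and the methods name releases of R and Bioconductor but no version of RMA itself. Of 45101 probe sets, 64 were controls, 34945 carried 1 gene symbol, 932 carried several and 9160 had none listed. For each of 18193 genes the probe set of highest mean signal was kept, and the 13755 genes above the 40th percentile of signal on at least 4 arrays were tested.

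Each comparison was fitted on the arrays of its 2 groups with lmFit and eBayes of limma 3.58.1 (R 4.3.3), with Benjamini-Hochberg adjustment over all genes tested and a threshold of 0.05, checked first on simulated data. Means of single members were also compared by an exact two-sided permutation test. P-values measure the spread between these mice, and the number of arrays limits the precision. Where the text gives a value for a second probe set, the fit ran over 24735 probe sets.

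Named list genes were the 4 with the largest fold change among those that passed in each list and comparison. Other genes named (Ncr1, Tcra, Nfatc2, Cblb, Ubash3b and Sla in Tcf1-/- thymi, and Il2ra, Themis and Cd6 in lymphomas) were chosen after their values were seen. Members, lists and tests were chosen with earlier results of these data known. Mouse numbers shared by titles were checked for pairing. Over 5 numbers of lymphomas and Tcf1+/- mice, deviations from the group mean correlated at 0.246 to 0.625. For 2 of 5 numbers the lymphoma of that number was the best match of the Tcf1+/- mouse. These were treated as pairs in an alternative fit, although the titles name no pairs and numbers 1 and 2 are also the arrays that stood apart. Alternatives covered filters, probe set choice, normalization, array sets, covariates, tests and each mouse left out.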

Additional observations from a re-analysis of the deposited data

How the results depend on the processing

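The count of members that passed moved with some settings in every comparison, and the cause was not tested. In Tcf1-/- thymi against Tcf1+/- thymi it was 4, and 1 with the mouse number as a replicate block, 2 relative to Abl1 and 1 with a threshold of 1 on the log2 fold change. Of all 13755 genes 2037 passed there, and 1257, 1553 and 1327 in these settings. An exact Mann-Whitney U test gave 0 members there and 0 of 13755 genes after adjustment: each of the 4 members had the smallest p that 4 against 5 mice allow, 0.0159 (adjusted p = 0.0917), so this says nothing about stability. In lymphomas against Tcf1-/- thymi the count of members was 2, and 1 with the mean of all probe sets and 0 with the replicate block, with the same mice without it, relative to Abl1, relative to the CD3 chains, with the threshold and after adding Y-linked signal as a covariate. Of all genes 2020 passed there, and 1942 of 12978 with the mean of all probe sets. In the settings with 0 members 584, 951, 1304, 1562, 1220 and 359 genes passed, in that order. In lymphomas against Tcf1+/- thymi the count of members was 2, and 1 with the probe set of largest interquartile range, after quantile normalization, relative to Abl1, relative to the CD3 chains, with the threshold and with the Y-linked covariate. Of all genes 1749 passed there, and in these settings, in that order, 1582 of 13322, 1745, 1030, 1092, 854 and 971. There the replicate block added Ptcra and changed no other call on the members. Relative to the CD3 chains the count of members was 1 in that comparison, against 7.94% of all genes. It was 0 without the 4 arrays that stood apart, against 5.39%, and 3 with the replicate block, against 11.7%. Leaving out 1 mouse at a time gave 3 to 5, 1 to 3 and 2 to 3 members that passed in the 3 comparisons. Of all 13755 genes 1394 to 2042, 1014 to 2203 and 1177 to 1951 passed in these fits. Relative to the CD3 chains, leaving out 1 mouse gave 2 to 3 members in Tcf1-/- thymi and 1 to 3 in lymphomas, each against Tcf1+/- thymi.

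In the other comparisons the samples shared only a number: correlations were -0.286 to 0.12 over 4 pairs for Tcf1-/- against Tcf1+/- thymi and -0.189 to 0.0912 for lymphomas against Tcf1-/- thymi, and 0 of 4 numbers matched best in each. The block moved the genes that passed to 1257, against 2037, and to 584, against 2020.

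Sign changes were found in members that had not passed, with 2 exceptions on other probe sets. In Tcf1-/- thymi against Tcf1+/- thymi, Cd3g ranged over -0.16 to 0.0649 with 1 mouse left out and was 0.00998 with the replicate block, 0.00998 with the same mice without it and 0.44 relative to the CD3 chains. Ptcra ranged over -0.0446 to 1.11 with 1 mouse left out, Zap70 was 0.00813 relative to the CD3 chains and 0.21 on its probe set of lowest mean signal, and Lat was 0.00311 relative to the CD3 chains. In lymphomas against Tcf1-/- thymi, Cd247 was 0.43 on the third of its probe sets by mean signal and 0.0709 on the last. Fyn ranged over -0.0833 to 0.0906 with 1 mouse left out, was 0.20 with the block, with the same mice and with the mean of all probe sets, 0.40 on its other probe set, which had the larger interquartile range, and 0.0949 relative to Abl1. Zap70, which had passed there, was -0.14 on its probe set of lowest signal.

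In lymphomas against Tcf1+/- thymi, Cd3d ranged over -0.0979 to 0.0779 with 1 mouse left out, and was 0.35 on the 4 arrays alone, 0.00970 relative to Abl1, 0.0602 relative to the CD3 chains and 0.00662 with the Y-linked covariate. Cd3e ranged over -0.0875 to 0.15, and was -0.0558 without the 4 arrays, -0.21 with the block, -0.21 with the same mice, -0.0520 after quantile normalization and -0.12 with the covariate. Cd3g was 0.0921 on the 4 arrays alone. Zap70 was -0.0221 without them and -0.0307 with array weights. Lat ranged over -0.10 to 0.0239, and was 0.0374 without the 4 arrays, 0.0953 with the block, 0.0953 with the same mice and 0.0379 relative to the CD3 chains. Cd247, which had passed, was 0.0118 on its last probe set, which lay below the filter.

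The number of genes that passed, or the share of higher ones among them, also moved. In Tcf1-/- thymi against Tcf1+/- thymi 2037 passed (68.2% higher), and 3040 without the 4 arrays (46.4% higher), 5611 with array weights (47.8%), 1327 with the threshold, 5110 relative to the CD3 chains (95.2%) and 2369 after quantile normalization (53.4%). In lymphomas against Tcf1-/- thymi 2020 passed (43.2% higher), and 1014 without Tcf1-/- mouse 1 (27.9%), 1271 without mouse 2 (36%), 1372 without mouse 3 (32%), 584 with the replicate block (7.88%), 951 with the same mice (17.4%), 1304 relative to Abl1, 4501 with array weights (59.8%), 1220 with the threshold (23.4%), 359 with the covariate (14.8%) and 1562 relative to the CD3 chains (5.44%). In lymphomas against Tcf1+/- thymi 1749 passed (66.9% higher), and 1573 without the 4 arrays (47.6%), 3753 with the array set as a block (54.7%), 2872 on the 4 arrays alone (56.1%), 1785 with the replicate block (49.6%), 686 with the same mice, 1030 relative to Abl1, 1092 relative to the CD3 chains (77.4%), 6134 with array weights, 854 with the threshold, 971 with the covariate and 1745 after quantile normalization (51.7%).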
